A study of Mus musculus with 26 samples.

Results

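The third day of O3 exposure was examined by setting 6 lungs taken after 72 hr of O3 against 6 taken after 48 hr, with 3 mice of each genotype at each time. These 12 arrays were chosen by their labels alone, out of 26 in all. The mice were males of 6 to 8 weeks. Il10+/+ mice were C57BL/6, and Il10-/- mice were labelled B6.129P2-Il10tmlCgn/J, which the paper writes as B6.129P2-Il10tm1Cgn/J. The Il10-/- mice carry a targeted Il10 allele in every cell, so that no cell type can be singled out. All 12 mice breathed 0.3 ppm O3 for 23.5 hr per day, and RNA of the whole left lung was hybridised, 1 array per labelled animal. Each value is a log2 intensity of 1 probe set per gene, and each difference is 72 minus 48 hr on that scale. The study's design also names air of 72 hr, but none of the 26 arrays is of 72-hr air, so the 72-hr lungs have no air control of their own time. The air arrays used were of 24 and 48 hr (8 arrays), and their levels are a reference that takes no part in the comparison of the days.

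O3 is an oxidant gas that injures ciliated and alveolar type 1 cells where the airways open into alveoli. Injury is followed by an acute phase response, by recruitment of neutrophils and macrophages and by division of the surviving epithelial cells, and with continued exposure parts of this response are known to adapt. Metallothioneins, which bind zinc and take up oxidants, and acute phase proteins are quick and reversible parts of it. Interleukin-10, the cytokine that Il10-/- mice lack, restrains macrophages and neutrophil recruitment. Lung homogenates hold all these cells together, so that a lower value can come from fewer cells of a type or from less RNA in each cell, and these cannot be told apart.

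The labels were checked first. Sftpc, the surfactant gene of alveolar type 2 cells, lay between 14.3 and 14.47 on the 12 arrays, and the mean of the 15 alveolar type 2 genes measured lay between 12 and 12.2. The Il10 probe set read 4.02 to 4.21 in the 6 Il10+/+ lungs and 6.93 to 7.42 in the 6 Il10-/- lungs. It was thus higher in the mice that carry the targeted allele, and whether it lies outside the changed part of the gene is not given in the sources used here. It separates the genotypes on these 12 arrays and says nothing of the protein. Of the arrays used only as a reference, the library labelled Il10-/- air 48 hr replicate 1 read 3.87 for Il10, where the other 3 Il10-/- air arrays read 6.29 to 6.72. Counts and responses set against air are given for all 8 air arrays, with the values without this one where the text gives them.

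Between 48 and 72 hr of O3 no gene passed the threshold. The lowest adjusted p was 0.733 (limma, Benjamini-Hochberg adjustment over 12394 genes), so the share of genes called was 0%. At an unadjusted p under 0.05, 405 genes (3.27%) were higher and 328 (2.65%) lower at 72 hr, 5.91% in all. The data bound the change closely. The 95% confidence interval of the difference lay within 1 on the log2 scale, a doubling or a halving, for 12349 genes (99.6%), and its median half-width was 0.18. The measured difference reached 1 in 2 genes and 0.5 in 31, and it lay above 0 in 6080 genes and below 0 in 6314. In Il10+/+ mice alone the lowest adjusted p was 0.596, with 182 genes (1.47%) higher and 158 (1.27%) lower at an unadjusted p under 0.05, 2.74% in all. In Il10-/- mice alone it was 0.981, with 291 genes (2.35%) higher and 212 (1.71%) lower, 4.06% in all. For the difference between the genotypes, Il10-/- minus Il10+/+, it was 1, with 77 genes (0.621%) higher and 129 (1.04%) lower, 1.66% in all.

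The replicate numbers of the arrays tied the days together within a genotype. When each number of a genotype was kept as a pair, 2 genes (0.0161%) passed over both genotypes. They were Mt2, which fell, and Cyp1a1, which rose. Same numbers also correlated across the genotypes, at 0.03 to 0.44 in 12 pairs, and with the number as a block over both genotypes neither gene passed (adjusted p = 0.133 for both, by limma). The pairing came from the data, since the labels do not say what a number marks. Without Il10-/- 48 hr replicate 1, and with no pairs, the 2 genes past the threshold were Cyp1a1, which rose by 1.73, and Sphk1, a sphingosine kinase, at -0.65 (adjusted p = 0.0355 by limma), where Sphk1 over all 12 arrays was -0.5. The other probe set of Sphk1 read -0.17 over all 12 arrays.

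Because Mt2 and Cyp1a1 were the 2 genes past the threshold with the pairs kept, the 250 bases before their annotated starts are shown with those of Mt1, the neighbour of Mt2 that moved the same way. They were read from RefSeq's annotation of GRCm38.p6, all on the plus strand, for Mt2 at chr8:94172368-94172617, for Mt1 at chr8:94178839-94179088 and for Cyp1a1 at chr9:57697363-57697612. Capitals in the metallothionein sequences mark matches to the cores of the metal response element, TGCACNC and TGCGCNC, on either strand, and in the Cyp1a1 sequence the core of the xenobiotic response element, GCGTG.
Mt2: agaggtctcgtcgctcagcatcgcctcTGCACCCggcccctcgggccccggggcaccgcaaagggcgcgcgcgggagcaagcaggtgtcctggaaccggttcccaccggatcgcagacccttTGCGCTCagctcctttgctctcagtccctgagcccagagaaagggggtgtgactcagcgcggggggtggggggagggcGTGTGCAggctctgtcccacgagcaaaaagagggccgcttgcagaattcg
Mt1: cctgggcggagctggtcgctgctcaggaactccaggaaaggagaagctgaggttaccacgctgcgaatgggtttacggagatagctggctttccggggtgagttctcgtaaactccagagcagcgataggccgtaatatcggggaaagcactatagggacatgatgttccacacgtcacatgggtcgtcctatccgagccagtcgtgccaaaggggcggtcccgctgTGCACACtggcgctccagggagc
Cyp1a1: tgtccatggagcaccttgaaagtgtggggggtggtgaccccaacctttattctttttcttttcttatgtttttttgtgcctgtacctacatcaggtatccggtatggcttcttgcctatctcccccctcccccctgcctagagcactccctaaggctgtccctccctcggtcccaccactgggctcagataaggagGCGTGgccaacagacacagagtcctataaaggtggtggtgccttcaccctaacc
The Mt2 window held 3 matches, that of Mt1 held 1 and that of Cyp1a1 held 1. Of 27025 windows of the same length, 1 per gene, 21.3% held either metal core and 28.2% held GCGTG, so that a match by itself is common. The annotated start is one of several a gene can use, and no binding was measured.

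Mt2 encodes a metallothionein, a small protein that binds zinc and copper. At 48 hr its level was 10.51, 10.69 and 9.9 in Il10+/+ lungs and 10.24, 11.08 and 10.53 in Il10-/- lungs. At 72 hr it was 9.72, 9.72 and 9.24 in Il10+/+ lungs and 9.47, 9.68 and 9.67 in Il10-/- lungs. Every 72-hr array lay below every 48-hr array, in either genotype. The difference was -0.91 ± 0.16 (SE, 6 arrays against 6), with a 95% interval from -1.26 to -0.56, an unadjusted p of 9.77e-05 and an adjusted p of 0.733 (limma). All 6 pairs were lower at 72 hr, by 0.65 to 1.4, as any pairing would give without overlap. With the pairs kept, a block drawn from these data, the adjusted p was 0.00937 (limma). Wild-type lungs differed by -0.81 and Il10-/- lungs by -1.01, with -0.21 ± 0.32 between the genotypes, which did not pass. Set against air, where the 8 arrays read 8.05 to 9.46, the response was 1.8 at 48 hr and 0.89 at 72 hr, or 1.75 and 0.84 without the array that goes against its label. The level at 24 hr was 10.14 to 10.86 in Il10+/+ lungs, above all 3 of their 72-hr arrays.

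Mt1, the other main metallothionein of lung, had means of 10.67 and 10.71 at 48 hr in Il10+/+ and Il10-/- lungs, and of 10.34 and 10.17 at 72 hr. The difference was -0.44 ± 0.11, lower in 6 of 6 pairs, and did not pass (adjusted p = 0.733, and 0.148 with the pairs kept). Of 6 genes of metallothioneins and zinc transport, 0 passed, 2 were lower at an unadjusted p under 0.05 and their median difference was -0.1, where the median of all genes was near 0.

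Cyp1a1 encodes a cytochrome P450 that oxidises aromatic compounds and is the classic target of the aryl hydrocarbon receptor. At 48 hr it read 7.11, 6.62 and 6.14 in Il10+/+ lungs and 6.76, 4.78 and 5.06 in Il10-/- lungs. At 72 hr it read 7.42, 7.2 and 7.22 in Il10+/+ and 8.48, 7.15 and 7.55 in Il10-/- lungs. The days did not overlap in either genotype, and Il10-/- replicate 1 was the highest array at both times within its genotype. The difference was 1.42 ± 0.32, with a 95% interval from 0.73 to 2.12, an unadjusted p of 0.000734 and an adjusted p of 0.733. With the pairs kept the adjusted p was 0.00509 (limma). All 6 pairs were higher, as any pairing within a genotype would give without overlap. In Il10-/- mice the pairs rose by 1.72, 2.37 and 2.49 (adjusted p = 0.00235 with the pairs kept, 0.981 without). In Il10+/+ mice they were higher by 0.31, 0.58 and 1.08, and the test did not pass (adjusted p = 0.686 with the pairs kept). The difference between the genotypes was 1.54 ± 0.64 and did not pass (adjusted p = 1 without the pairs and 0.256 with them). The level in air ran from 6.47 to 11.16, with a median of 8.33 over the 8 arrays. Against the mean of air Cyp1a1 was -2.33 at 48 hr and -0.9 at 72 hr. Without the Il10-/- air array that goes against its label these were -2.32 and -0.9. The air value of 11.16, from an Il10+/+ 24-hr array, raises the mean in both, and responses without it were not computed.

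**Figure D1:**
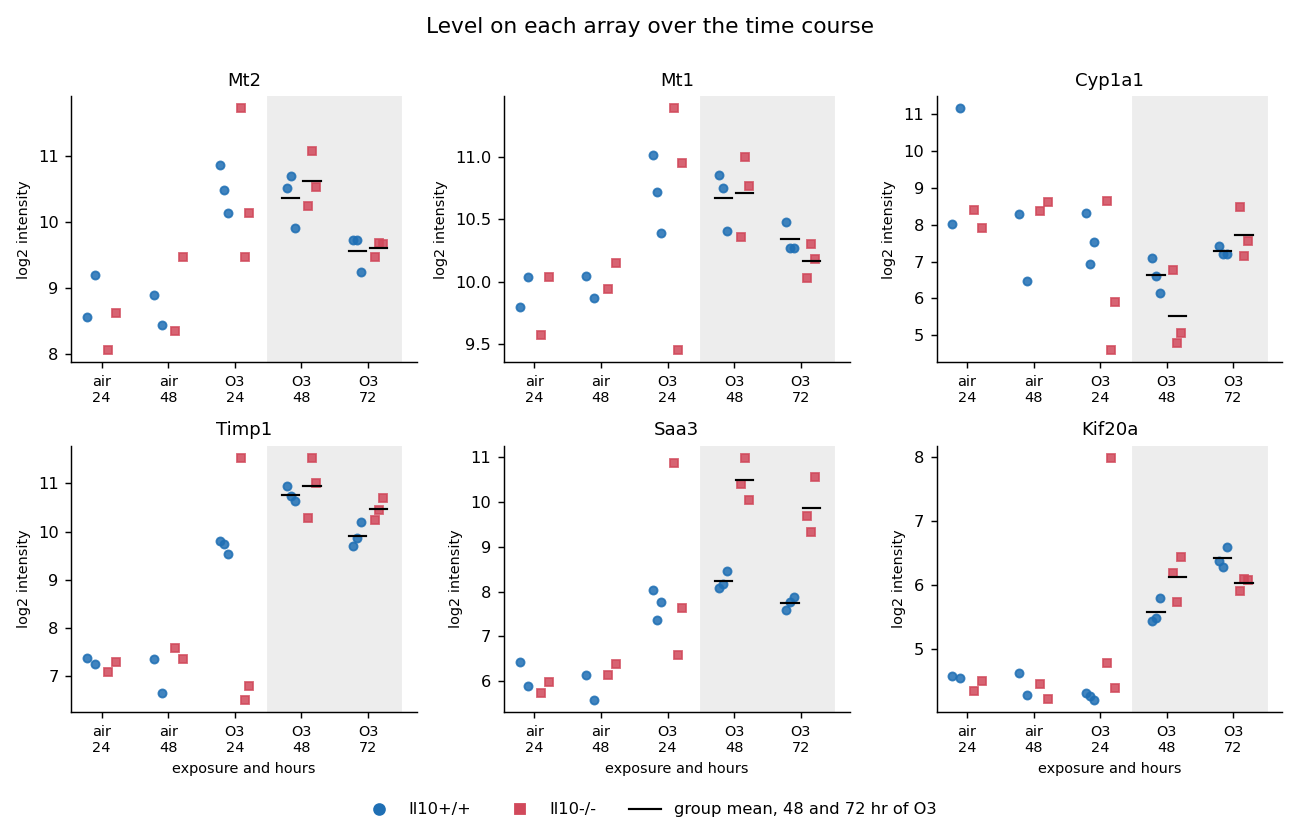
Level of 6 genes (log2 intensity) on each of the 26 arrays by exposure and hours, with circles for Il10+/+ and squares for Il10-/- lungs; bars are group means at 48 and 72 hr of O3, the shaded times compared. Mt2 at 72 hr lies below all 48-hr arrays in both genotypes and above the highest air array (9.46) in all but 1 lung, and Kif20a at 72 hr lies above 48 hr in Il10+/+ lungs, while the days overlap in Il10-/- lungs.

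The 5 genes with the smallest unadjusted p in each direction were named, and none of them passed. On 9 of these 10 genes the 72-hr arrays did not overlap the 48-hr arrays in either genotype, which held for 46 genes (0.371%) in the higher and 44 (0.355%) in the lower direction. Since they were taken for small p, nothing is read from that count.

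Among the higher genes were 2 receptors. Ifngr2, the signalling chain of the interferon gamma receptor, read 8.84, 8.79 and 8.86 at 48 hr and 8.96, 9.02 and 9.13 at 72 hr in Il10+/+ lungs, and 8.62, 8.85 and 8.63 and then 9.02, 9.18 and 9.13 in Il10-/- lungs. Its difference was 0.31 ± 0.064, but its other probe set read -0.05. All 6 pairs of Ifngr2 were higher, as any pairing within a genotype would give without overlap. P2rx7, the ATP-gated channel that triggers release of interleukin-1, differed by 0.32 ± 0.072 at a low level of 4.71 to 5.16 in the group means. Ces1g, a carboxylesterase of lipid metabolism, differed by 0.46 ± 0.1, and Map6, which stabilises microtubules, by 0.35 ± 0.08. Ifngr2, P2rx7 and Map6 lay within 0.04 of air or below it at 48 hr, whereas Ces1g was 0.38 above air then and 0.84 at 72 hr.

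Beside Mt2, the lower genes were Gdpd1, a lysophospholipase D, Cckar, the cholecystokinin A receptor, Gatm, which makes the creatine precursor, and Cry2, a repressor of the circadian clock. Their differences were -0.42 ± 0.079, -0.35 ± 0.067, -0.38 ± 0.076 and -0.32 ± 0.072. Cry2 read 7.42 to 7.49 at 48 hr and 7.07 to 7.4 at 72 hr in Il10+/+ lungs, and 7.69 to 7.79 and then 7.15 to 7.42 in Il10-/- lungs. Its level in air was 7.71 and 7.9 in the 2 genotypes, so that both days lay below air in the means, at -0.21 at 48 hr and at -0.53 at 72 hr.

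**Figure D2:**
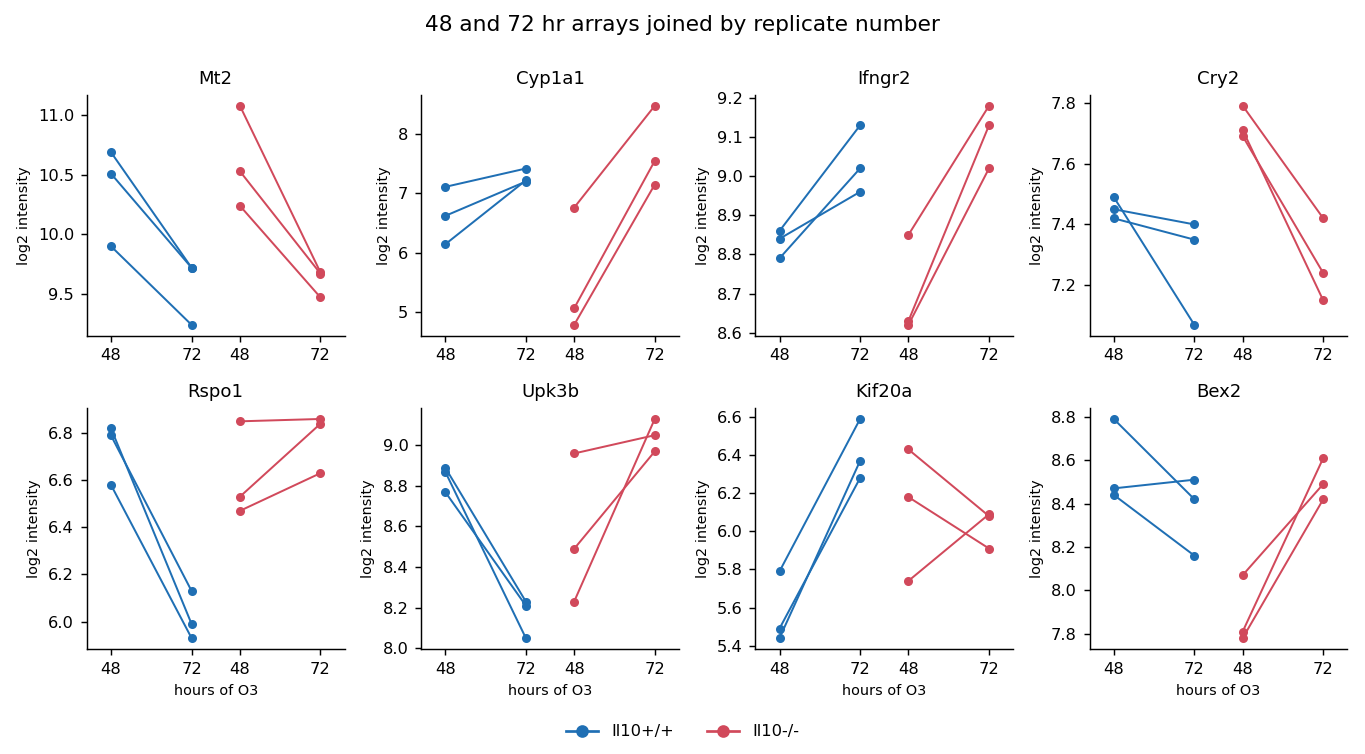
Level (log2 intensity) of 8 genes at 48 and 72 hr of O3, each line joining the arrays of 1 replicate number within a genotype. All 6 lines fall for Mt2 and Cry2 and climb for Cyp1a1 and Ifngr2, genes whose days do not overlap within a genotype. Rspo1, Upk3b and Bex2 run in different directions in the 2 genotypes on most lines.

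The next question was whether the response to O3 itself waned or grew on the third day. Genes that respond to O3 were picked by the mean of 48 and 72 hr against air, a contrast that does not weigh 1 day over the other. Past the threshold, 1589 genes (12.8%) rose above air and 1487 (12%) fell below it in the 20 arrays, and without the library that goes against its label these were 1412 and 1283. Of the genes past the threshold, 113 (0.912%) responded at least 2-fold, 108 higher and 5 lower, or 109 and 4 without that library. For the 108, the median response was 1.39 at 48 hr and 1.36 at 72 hr, both set against the same air arrays, and 1.41 and 1.37 for the 109. The difference between the days was above 0 in 58 and below 0 in 50, with a median of 0.01. At an unadjusted p under 0.05, 8 of the 108 were higher and 11 lower at 72 hr, where 3.27% and 2.65% of all genes were. The 95% interval of the difference lay within 1 on the log2 scale for 109 of the 113. The choice of the 108 used both days, so a gene that responded on 1 day only tended to be left out. The medians above and the counts that follow are partly set by this choice. They describe these genes and do not say how many responses faded. At 72 hr 101 of the 108 were at least 2-fold above air, where 103 had been at 48 hr. For 106 the response on the log2 scale at 72 hr was at least 0.5 times that of 48 hr.

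The exceptions were Mt2 and Orm1, whose log2 response at 72 hr was under 0.5 times that at 48 hr. The 6 genes of the 108 with the most negative difference were Mt2, Orm1, Timp1, Saa3, Cyp7b1 and Pigr, some of them named after their values were seen, and with the pairs kept Mt2 alone of these 6 passed. Orm1, an acute phase glycoprotein, differed by -0.79 ± 0.35 (unadjusted p = 0.041), with Il10-/- lungs that read 5.31, 8.04 and 6.87 at 48 hr and 4.92, 5.64 and 5.55 at 72 hr. Without Il10-/- 48 hr replicate 2, the highest array, it was -0.46. Timp1, the inhibitor of matrix metalloproteinases that was among the most induced genes, read 10.94, 10.73 and 10.63 at 48 hr and 9.7, 9.86 and 10.2 at 72 hr in Il10+/+ lungs, which do not overlap. In Il10-/- lungs it read 10.29, 11.53 and 11.02 and then 10.25, 10.44 and 10.69, which do. Its difference was -0.67 ± 0.17 (unadjusted p = 0.00229), on a response of 3.61 at 48 hr and 2.94 at 72 hr, or 3.65 and 2.99 without the air array in doubt. Saa3, an acute phase apolipoprotein, differed by -0.55 ± 0.2, on 3.33 and 2.78. Cyp7b1, an oxysterol hydroxylase, differed by -0.45 ± 0.14, and Pigr, which carries IgA across epithelium, by -0.44.

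At the other end stood Clec4n, the dectin-2 receptor of macrophages and dendritic cells, at 0.5 ± 0.16, and Ccnb2, the cyclin B2 of mitosis, at 0.42 ± 0.12. Clec4n was 1.3 above air at 48 hr and 1.79 at 72 hr, and was higher at 72 hr in 5 of 6 pairs. Of the 5 genes that O3 lowered 2-fold, Cyp1a1 and Thrsp, a regulator of lipid synthesis, lay nearer to air at 72 hr, with differences of 1.42 and 0.43, and Thrsp did not pass (unadjusted p = 0.0723).

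**Figure D3:**
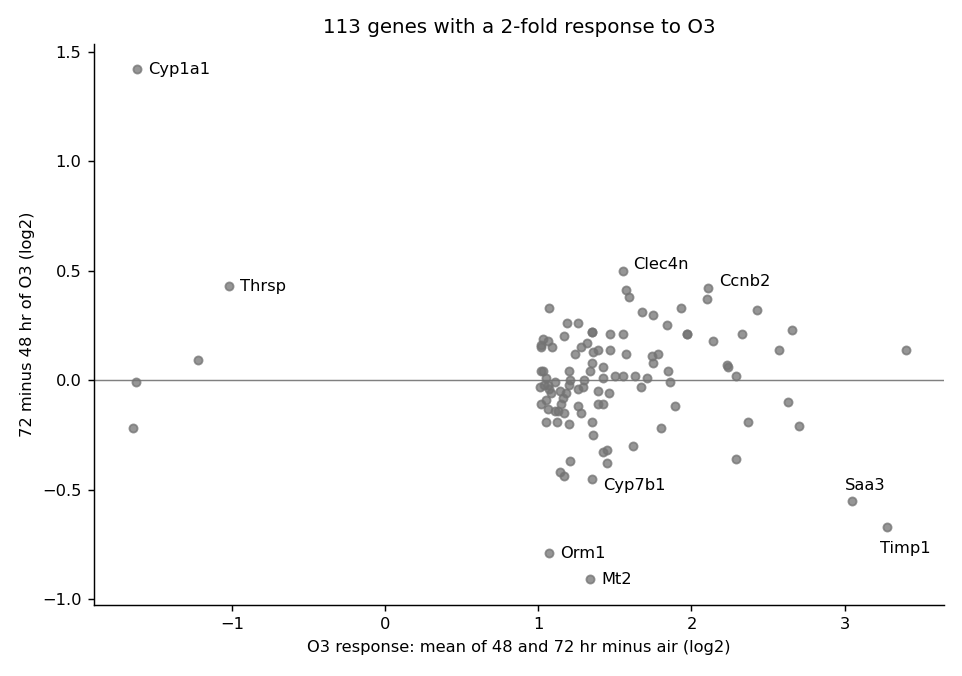
Difference between 72 and 48 hr of O3 (log2, vertical) against the mean response of both days relative to air (log2, horizontal) for the 113 genes with a 2-fold response. Most points lie near the zero line, with Mt2, Orm1, Timp1 and Saa3 below it and Cyp1a1 far above.

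Acute phase genes, mostly targets of STAT3, were measured for 24 members. None passed, 5 were lower and 0 higher at an unadjusted p under 0.05, 2 lay above 0, and the median was -0.18, against 2.65% lower over all genes. Differences in the list ran from -0.79 to 1.16, and in Il10+/+ lungs up to 2.14. The largest was thus a rise, which did not reach an unadjusted p under 0.05. The count of 5 rested on single arrays. It was 2 without Il10+/+ 48 hr replicate 3 or Il10-/- 72 hr replicate 1, 3 without Il10-/- 48 hr replicate 2, Il10-/- 72 hr replicate 2 or Il10+/+ 72 hr replicate 1, and 9 without Il10-/- 72 hr replicate 3. In the fits over 25 or 26 arrays it was 1. The 5 were Saa3, Saa1 at -0.25, Orm1, Itih4 at -0.37 and Pigr. The list as a whole was still above air, with a median response of 0.62 at 48 hr and 0.52 at 72 hr (0.6 and 0.5 without the air array in doubt), and 16 of the 24 were past the threshold over both days. Of 29 cytokines and receptors, 5 were lower and 1 was higher at an unadjusted p under 0.05, against 2.65% and 3.27% of all genes. Among the lower were Il6ra, the interleukin-6 receptor, at -0.58 ± 0.21, and Osmr, the oncostatin M receptor, at -0.21 ± 0.073. The other probe set of Il6ra read -0.14.

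Targets of the glucocorticoid receptor were mostly lower at 72 hr. Of 18 measured, 8 were lower and 0 higher at an unadjusted p under 0.05, where 2.65% and 3.27% of all genes were. Of the 18, 1 lay above 0 and the median was -0.21, but none passed the adjusted threshold. The 8 were Fkbp5, the co-chaperone that blunts the receptor, at -0.4 ± 0.1, Klf9 at -0.29, Zbtb16 at -0.55, Per1 at -0.5, Glul, the glutamine synthetase, at -0.26, Tsc22d3, the leucine zipper GILZ, at -0.37, Cdkn1a, the cell cycle inhibitor p21, at -0.23 and Sult1a1, a sulfotransferase, at -0.56. Fkbp5 read 7.81, 7.77 and 7.79 and then 7.38, 7.63 and 7.7 in Il10+/+ lungs, and 8.21, 8.84 and 8.72 and then 7.92, 8.17 and 7.93 in Il10-/- lungs, so that the days did not overlap. The count of 8 went to 12 without Il10-/- 72 hr replicate 2, and to 4 in the fits over 25 or 26 arrays. The median was -0.31 with 8 lower in Il10-/- lungs alone, and -0.2 with 0 lower in Il10+/+ lungs alone. Of all genes, 1.71% were lower in Il10-/- lungs and 1.27% in Il10+/+ lungs. No gene of the list differed between the genotypes at an unadjusted p under 0.05. Against air the list stood at -0.12 at 48 hr and at -0.3 at 72 hr, or at -0.12 and -0.27 without the air array in doubt.

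Genes of the circadian clock, which share Per1 with that list, were also lower more often than higher. Of 19 measured, 3 were lower and 0 higher at an unadjusted p under 0.05 (Cry2, Per1 and Clock), against 2.65% lower over all genes. The median was -0.1. The hour at which each lung was taken is not given in the sources used here, and its part in the result was not tested.

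Mitosis genes had higher counts at 72 hr in Il10+/+ than in Il10-/- lungs, though none passed. The list of mitosis and chromosome segregation held 40 measured genes, of which 38 were past the threshold above air over both days (36 without the air array in doubt). Over both genotypes 6 were higher and 0 lower at 72 hr at an unadjusted p under 0.05, with a median of 0.14. In Il10+/+ lungs 25 of the 40 were higher at an unadjusted p under 0.05, where 1.47% of all genes were, 38 lay above 0 and the median was 0.44. In Il10-/- lungs 0 were higher, 1 was lower, 5 lay above 0 and the median was -0.08. None passed the adjusted threshold in either genotype. The difference between the genotypes had a median of -0.53, with 17 of the 40 lower at an unadjusted p under 0.05, where 1.04% of all genes were, and none past the adjusted threshold.

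The mean level of the 40 genes was 6.57, 6.75 and 7.03 at 48 hr and 7.26, 7.17 and 7.19 at 72 hr in Il10+/+ lungs, with no overlap. In Il10-/- lungs it was 7.23, 6.77 and 7 at 48 hr and 6.82, 7.01 and 6.83 at 72 hr, with overlap. The 48-hr arrays of Il10+/+ mice thus held the lowest values, and the 72-hr arrays lay close to the highest of Il10-/- mice at 48 hr. Without Il10+/+ 48 hr replicate 1, the lowest array, the Il10+/+ count was 10 with a median of 0.33. It was 16 without Il10+/+ 72 hr replicate 3 and 31 without Il10+/+ 48 hr replicate 3. In the fit over all 26 arrays, whose spread includes an Il10-/- 24-hr array at 9.02, the count was 0 at the same median. The genotype count of 17 went to 9 without Il10+/+ 48 hr replicate 1, to 10 without Il10-/- 48 hr replicate 1 and to 11 without Il10+/+ 72 hr replicate 1. It went to 28 without Il10+/+ 48 hr replicate 3 and to 0 over all 26 arrays, and was 27 with the pairs kept.

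Kif20a, a kinesin of cytokinesis, was the mitosis gene of smallest unadjusted p in Il10+/+ lungs. It read 5.44, 5.49 and 5.79 at 48 hr and 6.37, 6.28 and 6.59 at 72 hr in Il10+/+ lungs, a difference of 0.84 ± 0.16 (adjusted p = 0.956). In Il10-/- lungs it read 6.18, 5.74 and 6.43 and then 5.91, 6.09 and 6.08, a difference of -0.09 ± 0.16. Ccnb2 differed by 0.74 in Il10+/+ and 0.11 in Il10-/- lungs, Cdc20, the activator of the anaphase-promoting complex, by 0.84 and -0.09, and Aurkb, a kinase of chromosome segregation, by 0.54 and -0.02. Over both genotypes Aurkb was 0.26, and its other probe set, at a mean level of 4.44, read 0.01. Mki67, which encodes the Ki67 antigen, was 0.2 in Il10+/+ and -0.93 in Il10-/- lungs.

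Genes of DNA replication and S phase were described apart. Of 35 measured, 33 were above air past the threshold (32 without the air array in doubt), with a median response of 0.88 at 48 hr and 0.77 at 72 hr. Between the days 1 was higher and 3 lower at an unadjusted p under 0.05, with medians of -0.01 in Il10+/+ and -0.16 in Il10-/- lungs. Of all genes 3.27% were higher and 2.65% lower. For the difference between the genotypes 29 of the 35 lay below 0, with a median of -0.12 and 2 lower at an unadjusted p under 0.05. The 3 lower between the days went to 7 without Il10+/+ 72 hr replicate 3, to 1 without Il10+/+ 48 hr replicate 3 or Il10+/+ 72 hr replicate 2, and to 0 over 26 arrays. They were Hells, a chromatin remodeller, at -0.42 ± 0.12, Rpa2, a single-strand DNA binding protein, at -0.22 and Hat1, a histone acetyltransferase, at -0.22. The other probe set of Rpa2 read 0.06.

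**Figure D4:**
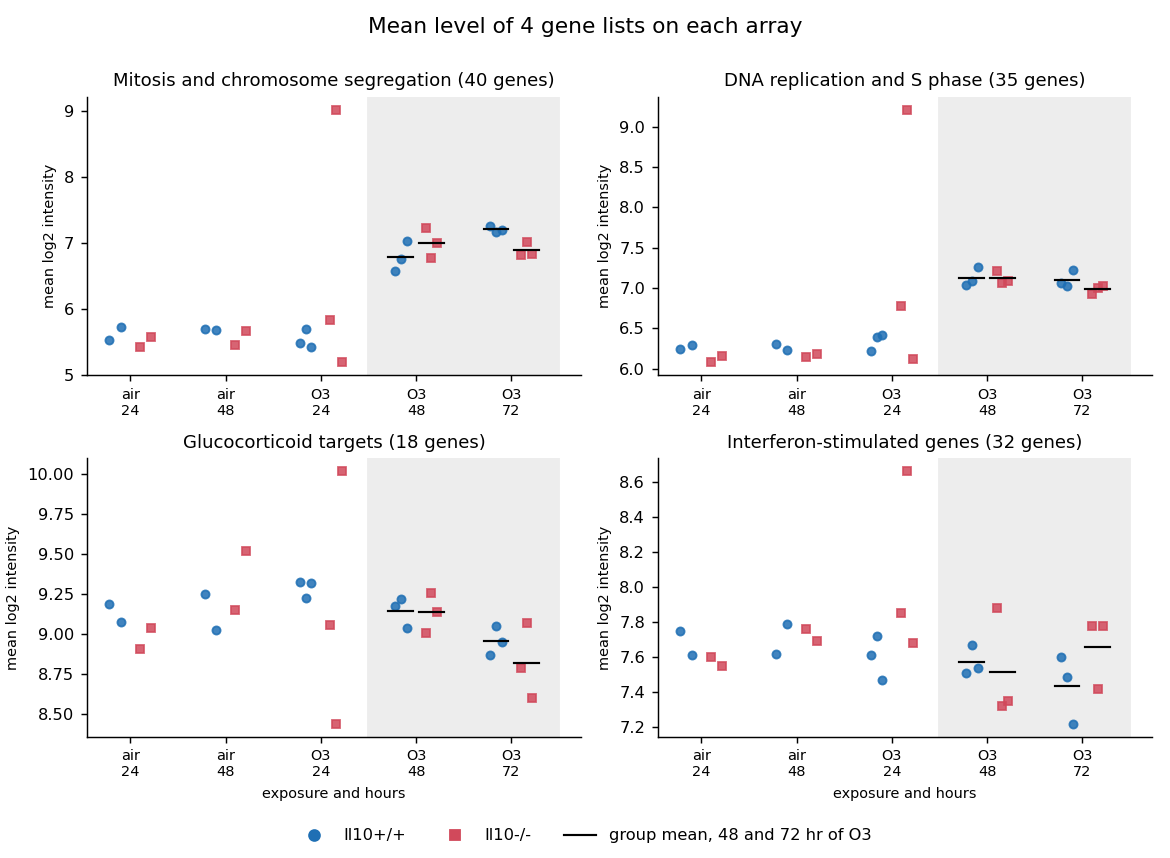
Mean level (log2 intensity) of 4 gene lists on each of the 26 arrays by exposure and hours, circles for Il10+/+ and squares for Il10-/- lungs, bars for group means at 48 and 72 hr of O3. The mitosis genes in Il10+/+ lungs go from 6.57 to 7.03 at 48 hr up to 7.17 to 7.26 at 72 hr, and the glucocorticoid targets lie lower at 72 hr in the means of both genotypes, with some overlap.

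No gene passed for the difference between the genotypes. The 3 with the smallest unadjusted p for the difference between the genotypes were Upk3b, a uroplakin of the mesothelium, Rspo1, a secreted activator of Wnt signalling, and Bex2 (adjusted p = 1). Upk3b read 8.89, 8.87 and 8.77 and then 8.23, 8.05 and 8.21 in Il10+/+ lungs, and 8.96, 8.23 and 8.49 and then 9.05, 9.13 and 8.97 in Il10-/- lungs. The difference of the differences was 1.18 ± 0.21, and it passed with array weights (adjusted p = 0.0478 by limma) and without Il10-/- 48 hr replicate 1. Rspo1 read 6.79, 6.58 and 6.82 and then 6.13, 5.93 and 5.99 in Il10+/+ lungs, a difference of -0.71 ± 0.12 (adjusted p = 0.596, and 0.0498 with the replicate number as a block over both genotypes, by limma), where Il10-/- lungs differed by 0.16. Bex2 was -0.2 in Il10+/+ and 0.62 in Il10-/- lungs.

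Upk3b is a marker of the pleural surface. The mean of the 6 mesothelial genes measured, of which it is one, was 7.91 to 8.18 at 48 hr and 7.76 to 7.93 at 72 hr in Il10+/+ lungs, and 7.91 to 7.96 and then 8.08 to 8.21 in Il10-/- lungs. Without Upk3b the mean of the other 5 was 7.72 to 8.07 and then 7.67 to 7.87 in Il10+/+ lungs, which overlap, and 7.74 to 7.86 and then 7.89 to 8.03 in Il10-/- lungs, which do not. The part of the pleura in each piece of lung was not tested. In a single genotype, Gal3st1, a sulfotransferase of glycolipids, had a difference of 0.59 ± 0.12 in Il10+/+ lungs, and F13a1, the factor XIII subunit of macrophages and platelets, one of 0.84 ± 0.15 in Il10-/- lungs, against -0.14 and -0.02 in the other genotype.

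Macrophage and myeloid genes gave mixed counts. Of 34 genes of macrophages and alternative activation, 4 were higher and 2 lower at an unadjusted p under 0.05, with a median of 0.04. Of the 34, 19 lay above 0 and 15 below. Over all genes 3.27% were higher and 2.65% lower. The 4 higher went to 7 without Il10-/- 48 hr replicate 1 and to 2 without Il10+/+ 48 hr replicate 3 or Il10+/+ 72 hr replicate 2. With 1 array left out the 2 lower ran from 1 to 3. Higher were the lysosomal genes Ctsd, a protease, at 0.38 ± 0.098, and Cd68 at 0.68 ± 0.22, with Gpnmb and Adgre1, a macrophage surface receptor, at 0.26 and 0.32. Lower were Retnla and Chil1, markers of alternative activation, at -0.21 and -0.24. Cd68 read 9.64, 9.1 and 8.57 and then 9.58, 9.74 and 9.85 in Il10+/+ lungs, and 8.25, 9.54 and 9.58 and then 9.73, 9.84 and 10 in Il10-/- lungs, and 1 array of each genotype at 48 hr stood low. Without the low Il10-/- array the difference was 0.46, and without the low Il10+/+ array 0.54. The same 2 arrays were the lowest of their groups for Tyrobp, the adaptor of myeloid receptors, at 10.19 and 10.8, and its difference was 0.53 ± 0.13. Higher genes from outside the 34 were Ccl6, a macrophage chemokine, at 0.39 ± 0.11, Itgb2, the integrin beta chain of leukocytes, at 0.46 ± 0.14, and C5ar1, the C5a receptor, at 0.36 ± 0.1. These 3 came from the chemokine and complement lists, whose medians were 0 and 0.02. Other myeloid genes did not rise, such as Ccr1 at -0.04 and Cd86 at -0.08. The mean of the 34 genes overlapped between the days, at 8.65 to 8.92 and 8.74 to 8.96. The 17 neutrophil genes had a median of 0.05, with 0 past an unadjusted p of 0.05 in either direction, and 5 of them were above air past the threshold over both days.

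Of the airway and alveolar cells, ciliated cell genes stood lowest. All 9 measured, of 19 listed, lay below 0, with a median of -0.2, and 2 were lower at an unadjusted p under 0.05. Of all 12394 genes, 6314 lay below 0 and 2.65% were lower at that p. The mean of the 9 was 7.4 to 7.9 and then 7.33 to 7.64 in Il10+/+ lungs. In Il10-/- lungs it was 7.55 to 7.58 and then 7.19 to 7.59, so that the days overlapped in both genotypes. Foxj1, the factor that sets up motile cilia, was -0.37 ± 0.095. Its days did not overlap in either genotype, so that any pairing gives 6 of 6 lower. Tekt2, a tektin of the axoneme, was -0.24 ± 0.11. Of 14 club cell genes, Cldn10 at -0.33 ± 0.098 and Gabrp at -0.5 ± 0.2 were lower, against 2.65% of all genes, and the median was -0.01. The largest difference in the list was a rise, 0.95 over both genotypes, and 0 were higher at an unadjusted p under 0.05. In Il10+/+ lungs differences ran from -0.72 to 1.49, with 1 higher and 2 lower at that p. The 15 alveolar type 2 genes had a median of -0.01, with Fasn and Etv5 higher at 0.21 and 0.26, and the 10 alveolar type 1 genes one of 0.01. The 27 genes of injured epithelium had a median of -0.02, with 2 higher and 3 lower.

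Among matrix genes, Fbln1, a fibulin of the basement membrane, was 0.34 ± 0.093, and with Col12a1 at 0.31, Fn1 at 0.17 and Fbln2 at 0.21 it made the 4 higher of 38, where Timp1 and Lox were the 2 lower. Over all genes 3.27% were higher and 2.65% lower at an unadjusted p under 0.05. The 13 B cell genes had a median of 0.26 with 12 above 0, but none passed even an unadjusted p of 0.05, and the mean of the list ranged from 6.2 to 7.3 among Il10+/+ lungs at 48 hr alone. Of 32 interferon-stimulated genes 1 was higher, Ifit2 at 0.21, with medians of -0.1 in Il10+/+ and 0.2 in Il10-/- lungs and a median difference between the genotypes of 0.27, above 0 in 30 of the 32. Igf1r, the receptor of insulin-like growth factor 1, was -0.34 ± 0.078, but its other probe set, at a mean level of 4.39, read 0.04. The main probe set of Igf1r was lower in 6 of 6 pairs, as any pairing would give, since its days did not overlap in either genotype. Of 5 red blood cell genes, Alas2 at -0.39 and Slc4a1 at -0.73 were lower, against 2.65% of all genes. With 1 array left out this count ran from 0 to 2. For Slc4a1 the highest Il10-/- array at 48 hr read 8.03, where the median of that group was 6.25. Other probe sets of Slc4a1 read -0.67 and, at a mean level of 4.4, 0.11.

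The counts of the other lists at an unadjusted p under 0.05, against 5.91% of all genes, were as follows. NRF2 targets and glutathione enzymes, which respond to oxidants, had 1 of 33 (Pgd at 0.17) and a median of -0.01, and sterol synthesis 0 of 19 and a median of 0.07. Of 24 genes of endoplasmic reticulum stress 1 was lower (Herpud1 at -0.23), and of 30 genes of oxidative phosphorylation 3 were higher, with Atp5o at 0.24 and Ndufb5 at 0.19. Heat shock proteins had Cryab at 0.25 and Hspd1 at -0.16, immediate early genes Egr1 at 0.34 and Fosl1 at -0.21, and p53 targets 1 higher (Phlda3 at 0.25) and 3 lower of 17 (23.5%). T cell genes had 1 higher of 17 (Cd2 at 0.51), and natural killer genes 0 of 17. Endothelial genes had 2 higher and 3 lower of 24 (20.8%) with a median of -0.05, chemokines 2 and 2 of 24 (16.7%) with a median of 0, and complement genes 2 and 0 of 17 with a median of 0.02. MHC class II genes had 1 higher of 12, cardiac muscle genes 1 lower of 14 and mast cell genes 1 lower of 10, and thymocyte, skeletal muscle and adipocyte genes had none of 7, 13 and 11.

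**Figure D5:**
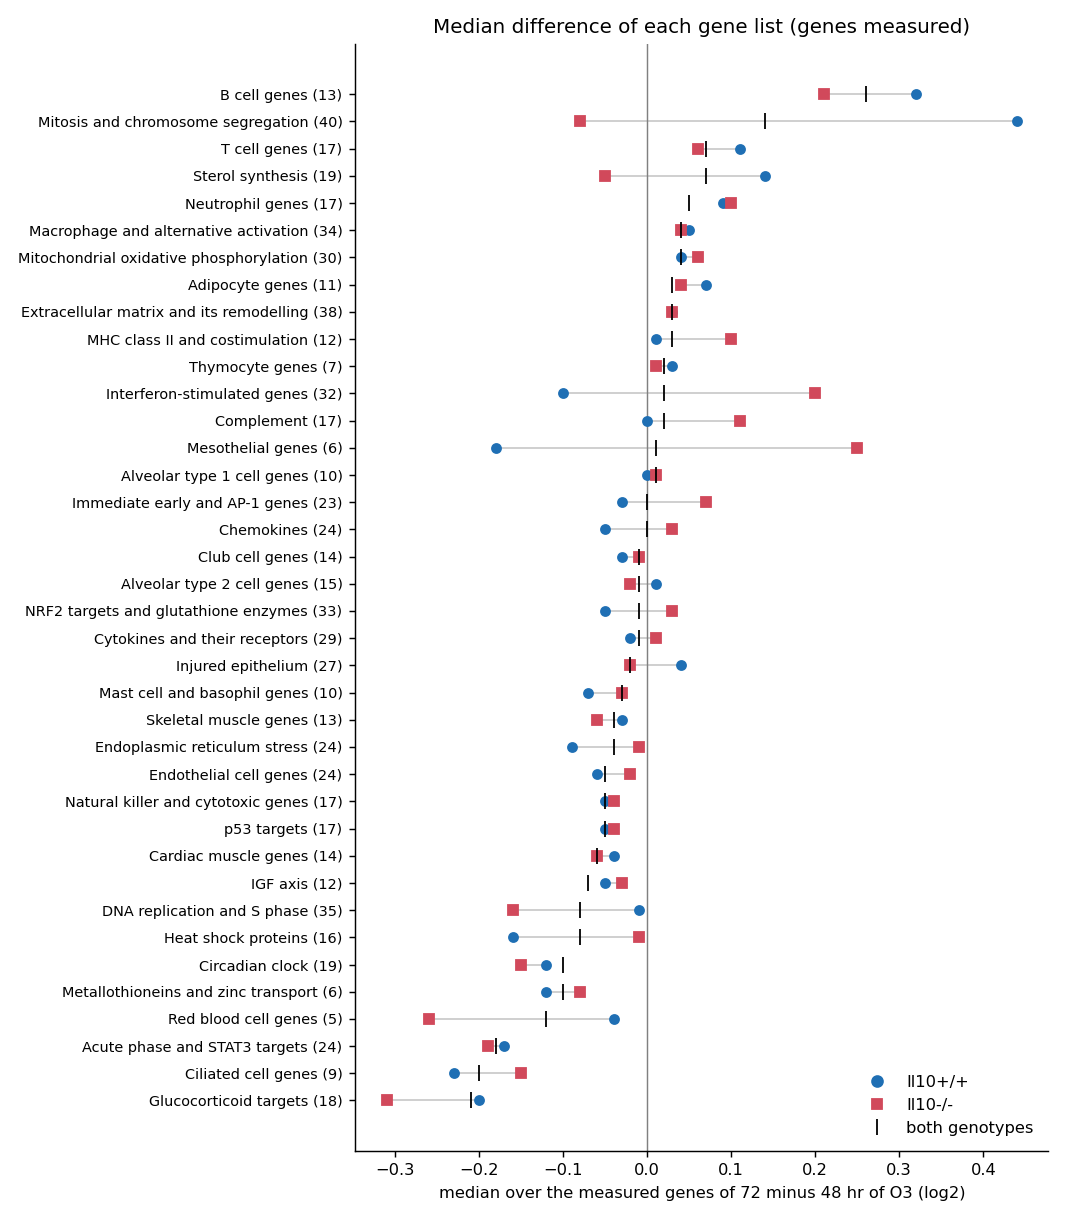
Median over the measured genes of each of 38 lists of the difference between 72 and 48 hr of O3 (log2), with circles for Il10+/+, squares for Il10-/- and ticks for both genotypes; numbers of genes measured stand in brackets. Medians run from -0.21 for glucocorticoid targets to 0.26 for B cell genes, and the genotypes stand furthest apart for mitosis and for mesothelial genes.

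Of the genes the study names, 21 were measured. None passed, and 1 was higher and 5 lower at an unadjusted p under 0.05. Ctse, an endosomal protease, was 0.35 ± 0.12, and the lower ones were Saa3, Hat1, Il33 at -0.2 ± 0.084 Tnf at -0.16 ± 0.072 and the Il10 probe set at -0.18. That probe set was -0.3 in Il10-/- lungs, which carry the targeted allele, and -0.07 at a low level in Il10+/+ lungs. Il33, an alarmin of epithelium, was -0.35 in Il10-/- and -0.06 in Il10+/+ lungs, and Tnf -0.3 and -0.02, and neither difference between the genotypes passed. Il1b was 0.34 ± 0.16, Socs3, the inhibitor of cytokine signalling, was -0.25 ± 0.15, and Stat3 was -0.18 ± 0.12. Il6, Il1a, Cxcl2 (which encodes MIP-2), Nos2 and Cd86 lay between -0.08 and 0.05, with standard errors of 0.07 to 0.17. Most of these levels were low. At 48 hr Il1a read 4.19 to 4.55, Cxcl2 4.35 to 4.54, Nos2 4.59 to 4.83 and Il6 4.64 to 5.5. The Il10 probe set read 4.08 to 4.21 in Il10+/+ lungs then. Against air at 48 hr Il1a was -0.01 and Nos2 -0.03, while Cxcl2 was 0.25 and Il6 0.89. At such levels a difference near 0 does not show that a gene was steady.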

How the data were processed

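Left lungs were profiled on 26 Affymetrix arrays. Robust Multichip Average in RMAExpress (version not given in the sources used here) was run by the authors on the arrays' intensity files, and the resulting deposited log2 values were used unchanged. The authors left out 1 array of Il10-/- mice at 24 hr, which is not among the 12 compared, and whether it shared their normalization is not given in the sources used here. Of 22690 probe sets, 20393 had 1 symbol in the platform's annotation, 691 several and 1606 none, and for each of 12394 genes the probe set of highest mean level was kept. The number of arrays limits the precision.

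The 12 arrays were fitted with limma 3.58.1 in R 4.3.3, a mean for each of 4 groups and empirical Bayes moderation, with Benjamini-Hochberg adjustment over all genes and a threshold of 0.05. Lists were described by counts and medians, without a set test. The members, the 38 gene lists and the tests were chosen with earlier results of these data known. Genes were named by these rules: the 5 smallest unadjusted p in each direction over both genotypes, 2 in each direction within a genotype, 3 for the genotype difference and 2 of each list (none had passed), and the genes the paper names. Ccnb2, Timp1 and others came through a list. Zbtb16, Tsc22d3, Orm1, Cdkn1a, Cyp7b1, Clec4n, Cdc20, Aurkb, Tyrobp, Sphk1, Pigr, Sftpc and further members of the glucocorticoid, acute phase, clock, macrophage and matrix lists were named after their values were seen. Not every gene the rules give is printed.

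Whether replicate numbers pair the arrays was checked on deviations from group means. Arrays of 1 number and genotype correlated across genes at 0.19 to 0.46 in all 6 pairs, other pairs of the same genotype at -0.37 to -0.01. Deviations within a group of 3 sum to 0, so that positive values for 1 number push the other values down. The negative values are thus no separate support for the pairs. Nothing in the labels says what a number marks. P-values measure the spread between these lungs. Alternatives were all 26 or 25 arrays, the replicate block, array weights, a filter on low genes, median centring, the mean of probe sets, an intensity trend, leaving out each array, a 2-fold minimum, other terms for genotype and the methods' analysis of variance. The pairs within a genotype, the set of O3-responsive genes, the responses without 1 air array and the mesothelial list without Upk3b were added after seeing the data. The steps were run on simulated data with independent noise on each array, unlike the correlated replicate numbers here. That run checks the code and does not show that small differences would be found. Figures were drawn with matplotlib 3.10.9.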

Additional observations from a re-analysis of the deposited data

Results flagged for a closer look

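A value that stands far from the other 5 of its day was found 4 times among 98 sets of 6 arrays, where chance alone flags about 1 in 20. Cyp1a1 on Il10-/- 72 hr replicate 1 was 8.48, against 7.15 to 7.55 on the other 72-hr arrays. On Il10-/- 72 hr replicate 3 the mean of the chemokine genes was 7.4, against 6.76 to 6.87, and that of the p53 targets was 8.16, against 8.25 to 8.3. The mean of the mesothelial genes on Il10+/+ 48 hr replicate 3 was 8.18, against 7.91 to 7.96.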

How the results depend on the processing

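With each replicate number of a genotype kept as a pair (a block chosen after seeing the data), 2 genes passed over both genotypes (Cyp1a1 and Mt2), 1 in Il10-/- mice (Cyp1a1) and 0 in Il10+/+ mice. With the replicate number as a block over both genotypes, 1 gene passed in Il10+/+ mice (Rspo1). Array weights gave 1 gene for the genotype difference (Upk3b). Leaving out each array in turn gave 0 to 2 genes over both genotypes, 0 to 1 in Il10-/- mice and 0 to 1 for the genotype difference, and each count above 0 came without Il10-/- 48 hr replicate 1. The cause was not tested. At an unadjusted p under 0.05 the 733 genes over both genotypes became 150 over 26 arrays, 422 over 25 and 1325 with the pairs. The 340 of Il10+/+ mice became 71, 197 and 734, 578 with the number as a block, 1011 with array weights and 200 without the genes lowest in mean level. The 503 of Il10-/- mice became 115, 303, 993 and, with the number as a block, 780. The 206 of the genotype difference became 64 over 26 arrays, 401 with the pairs, 344 with the block, 438 with array weights and 90 without the genes lowest in mean level. It was 343 without Il10+/+ 48 hr replicate 3, 347 and 321 without Il10-/- 48 hr replicates 1 and 2, and 316 without Il10-/- 72 hr replicate 2. With 1 array left out, counts of other lists also moved, from 2 to 8 lower for clock genes, 2 to 8 higher for matrix genes, 2 to 5 lower for cytokines and 1 to 4 lower for ciliated and club cell genes each. Median centring turned the split over both genotypes from 405 higher and 328 lower to 323 and 370. The methods' analysis of variance gave 152 genes at its unadjusted p of 0.01 and 0 after Benjamini-Hochberg adjustment. Differences near 0 changed sign when 1 array was left out for Il1a (-0.02 to 0.04), Il6 (-0.16 to 0.07), Cxcl2 (-0.04 to 0.06) and Cd86 (-0.18 to 0.08).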
